A study of Rattus norvegicus with 2 samples.

Results

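The set described here holds 8 genes of myelin, the lipid-rich sheath that glial cells wrap around axons: Pmp2, Pmp22 and Prx of peripheral myelin, Cnp and Mbp of central myelin, and the enzyme genes Fa2h, Ugt8 and Aspa. They are 8 of 18166 genes with a usable symbol on the array and are read by 9 probe sets, 2 for Mbp and 1 for each other gene. The genes were chosen from the difference between the arrays of this series, so the values below are a description and not an independent test. RNA came from C6, an established rat glioma line kept in DMEM with 10% FBS, and was hybridised to whole-transcript arrays, with 1 array of undifferentiated cells (C6) and 1 of cells given small molecules (SMiG). According to their own sample labels, SMiG cells received forskolin, which activates adenylyl cyclase, rapamycin, which blocks mTORC1, and I-BET151, which blocks BET bromodomain proteins. A protocol text carried by both samples instead names the GSK3 blocker CHIR99021 at 20 µM with forskolin at 100 µM over 35 days, and which of these applies is not settled here. The series compares the arrays to ask whether treated glioma cells resemble glia. C6 is a tumour line, so neither group holds normal glia, and each group is 1 array, so there is no replicate error, no p-value is given, and no difference below has a replicate check.

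Myelin is made by oligodendrocytes in the brain and spinal cord and by Schwann cells in peripheral nerve. Both cell types use the transcription factor SOX10 and make Cnp and Mbp, whereas Pmp2, Pmp22 and Prx are typical of Schwann cells and Mog, Mobp and Opalin of oligodendrocytes. The galactolipids of the sheath are built on ceramide: FA2H hydroxylates the fatty acid, UGT8 adds galactose to give galactosylceramide, and GAL3ST1 adds sulphate to give sulphatide. ASPA, an enzyme of oligodendrocytes, splits N-acetylaspartate into aspartate and acetate, and the acetate can feed lipid synthesis. In culture, agents that raise cyclic AMP are widely used to bring Schwann cells to express myelin genes.

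Of the 8 genes, 5 were at least 2-fold higher in SMiG than in C6 on measured values: Pmp2, Fa2h, Prx, Cnp and Aspa. None was 2-fold lower, and Pmp22 was 1.91-fold higher. Mbp was above background on both arrays by 1 of its 2 probe sets, with a log2 difference of −0.01, though not above the stricter floor used below. Ugt8 was under background on both arrays. A gene was taken as detected where at least 1 array exceeded its floor, the 95th percentile of olfactory and vomeronasal receptor genes, which are silent in most tissues. The floors were 4.86 for C6 and 4.96 for SMiG on the log2 scale, and 7 of the 8 genes were detected, 6 of them on both arrays and Mbp, by the mean of its probe sets, through SMiG alone. Among all 10903 detected genes, 3.20% were at least 2-fold higher in SMiG (3.06% where a value at or below the floor is replaced by the floor) and 6.53% at least 2-fold lower. The members were chosen with this difference known, so their count of 5 against these shares supports nothing further. Just inside the 2-fold threshold stood Aspa at 2.46-fold, and just outside it Pmp22 at 1.91-fold. For scale, the differences of the 1344 receptor genes had an SD of 0.32 on the log2 scale, and 11 of them (0.818%) passed 2-fold in either direction. This SD reflects the arrays and not the spread between cultures, which was not measured.

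**Figure D1:**
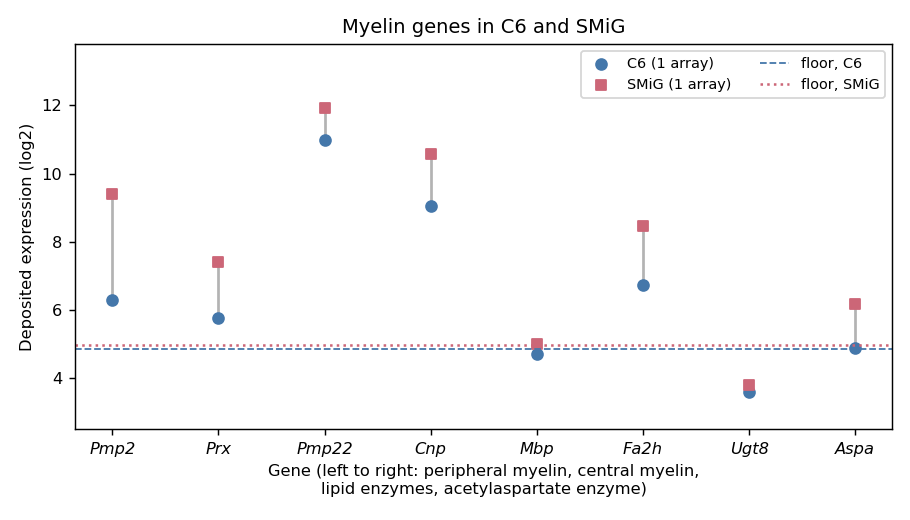
Deposited log2 expression of the 8 myelin genes on the C6 array (circles) and the SMiG array (squares), with the floor of each array as a horizontal line. A grey line joins the 2 values of a gene. Pmp2 has the longest line, from 6.28 to 9.39, the mean of the 2 Mbp probe sets sits at the floors, and Ugt8 lies below them on both arrays.

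Stretches of DNA upstream of genes whose values were higher in SMiG are shown so that motifs of myelin regulators in them can be seen beside the values. RefSeq upstream sequences of the GRCr8 rat assembly were matched by symbol for 7 of the 8 genes, all but Pmp2. The 250 bases before the annotated start site are given 5′ to 3′ on the strand of the gene, with every match to a searched motif in capitals, for Prx (chr1:91914171-91914420, plus strand), Cnp (chr10:86011254-86011503, plus strand), Fa2h (chr19:56273481-56273730, minus strand) and Aspa (chr10:58439038-58439287, minus strand). The Prx and Aspa windows lie inside the annotated span of the gene, before a start site that is not its outermost.
Prx: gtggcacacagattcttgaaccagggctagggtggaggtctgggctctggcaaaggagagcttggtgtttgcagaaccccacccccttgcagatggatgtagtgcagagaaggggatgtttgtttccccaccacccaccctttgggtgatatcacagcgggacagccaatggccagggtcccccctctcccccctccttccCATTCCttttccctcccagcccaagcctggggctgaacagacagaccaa
Cnp: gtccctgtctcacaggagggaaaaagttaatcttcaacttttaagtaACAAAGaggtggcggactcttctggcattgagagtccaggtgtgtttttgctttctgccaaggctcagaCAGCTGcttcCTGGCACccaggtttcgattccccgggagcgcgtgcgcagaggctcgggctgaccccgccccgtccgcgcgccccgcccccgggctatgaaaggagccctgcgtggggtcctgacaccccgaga
Fa2h: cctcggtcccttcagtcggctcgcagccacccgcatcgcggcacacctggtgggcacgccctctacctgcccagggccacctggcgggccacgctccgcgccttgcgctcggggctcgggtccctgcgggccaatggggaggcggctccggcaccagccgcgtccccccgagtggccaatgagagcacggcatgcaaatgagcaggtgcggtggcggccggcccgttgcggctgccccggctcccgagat
Aspa: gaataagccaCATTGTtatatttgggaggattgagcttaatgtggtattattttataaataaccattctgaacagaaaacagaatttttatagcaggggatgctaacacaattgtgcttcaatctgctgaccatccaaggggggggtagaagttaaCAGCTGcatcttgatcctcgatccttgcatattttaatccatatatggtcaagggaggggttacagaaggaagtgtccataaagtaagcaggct

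No searched motif was common to these 4 windows, and CAGCTG was in 2 of them, Cnp and Aspa. Both strands were searched for TGACGTCA (the cyclic AMP response element) and its core TGACG, which lies within it, ACAAAG and ACAATG (SOX factors), CAGCTG (the E-box of OLIG factors), GCGTGGGCG and GCGGGGGCG (EGR factors), CTGGCAC (MYRF) and GGAATG (TEAD factors). The Cnp window held ACAAAG at −203, CAGCTG at −134 and CTGGCAC at −124, counted from the start site to the leftmost base of the match as printed. In the Aspa window ACAATG on the opposite strand began at −240 and CAGCTG at −94. The Prx window held GGAATG on the opposite strand at −49, as did the Pmp22 window at −174. None of the motifs stood in the Fa2h window, which is 74.4% G and C against a median of 51.2% over all windows. Of 33469 windows of this length, 16.3% held ACAAAG, 11.1% ACAATG, 11.97% CAGCTG, 3.78% CTGGCAC and 12.1% GGAATG. The full response element TGACGTCA, present in 1.59% of windows, was in none of the 7 genes, and its core, present in 18.2%, was in the windows of Mbp and Ugt8. Mbp windows also held both SOX strings and the E-box. GCGTGGGCG, in 0.478% of windows, was in none of the 7 genes, and GCGGGGGCG, in 2.45%, was in that of Ugt8. A match in such a window is a string of letters and not a proven site, and its absence says nothing about regulation from elsewhere.

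Of the peripheral myelin genes, Pmp2 had the largest difference of the set. It encodes a small fatty-acid-binding protein that sits between the membranes of compact peripheral myelin. Its value was 6.28 in C6 and 9.39 in SMiG, both above the floor, a log2 difference of 3.12 or 8.67-fold. Only 5 detected genes had a larger difference, which places Pmp2 at rank 6 of 10903. The gene lies at chr2:93518730-93522648 in GRCr8. By the distance between the pairs of log2 levels, the detected genes nearest to Pmp2 were Inka2 at 0.29, Col18a1 at 0.56 and Olfml2a at 0.61, a likeness that rests on 2 arrays.

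The relatives of Pmp2 were near background. Pmp2 belongs to the fatty-acid-binding protein family, whose members resemble each other in sequence and carry fatty acids or retinoids in other tissues. Of 13 family genes with a probe set of their own, Pmp2 included, 11 were at or below the floor on both arrays. Fabp7, the brain form found in radial glia, was at 2.85 in C6 and 3.12 in SMiG. Fabp3, the heart form, was at 4.43 and 4.91, and Rbp2, a retinol carrier of the gut, lay above the floor in C6 only, at 4.96 against 4.57. The high SMiG value of Pmp2 thus had no counterpart among these relatives. Fabp5 was not analysed here.

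Prx encodes periaxin, a scaffold that links the outer Schwann cell membrane to the basal lamina through the dystroglycan complex. Its value was 5.76 in C6 and 7.41 in SMiG, a log2 difference of 1.65 or 3.14-fold, at rank 73. Under a stricter floor, the 99th percentile of those receptors (5.91 for C6 and 5.99 for SMiG), the C6 value falls under the floor and Prx is at least 2.82-fold higher. The partners of periaxin gave different readings: Dag1, encoding dystroglycan, was at 10.79 in C6 and 11.70 in SMiG (1.88-fold higher), whereas Drp2, encoding the dystrophin-related protein that periaxin binds, was below the floor on both arrays at 4.28 and 4.27. Prx is annotated at chr1:91912669-91934754.

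Pmp22 encodes a tetraspan protein of compact myelin whose copy number is altered in hereditary neuropathies. It was far above the floor on both arrays, at 10.98 in C6 and 11.91 in SMiG, and its log2 difference of 0.93 stayed short of 2-fold. Its closest relatives, the epithelial membrane protein genes, lay on the other side. Emp3 was at 11.20 in C6 and 8.73 in SMiG, which is 5.55-fold lower, and Emp1 at 10.20 and 8.84, which is 2.58-fold lower. Emp2 was at 6.18 in C6 and under the floor in SMiG at 4.76, at least 2.33-fold lower. Of the 4 detected genes of this family Pmp22 alone was higher in SMiG, and Lim2, Perp and Tmem47 were at or below the floor on both arrays. The directions of Pmp22, Emp1, Emp2 and Emp3 were the same under median centring, removal of a lowess trend and quantile normalization. Pmp22 lies at chr10:48294932-48324941.

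**Figure D2:**
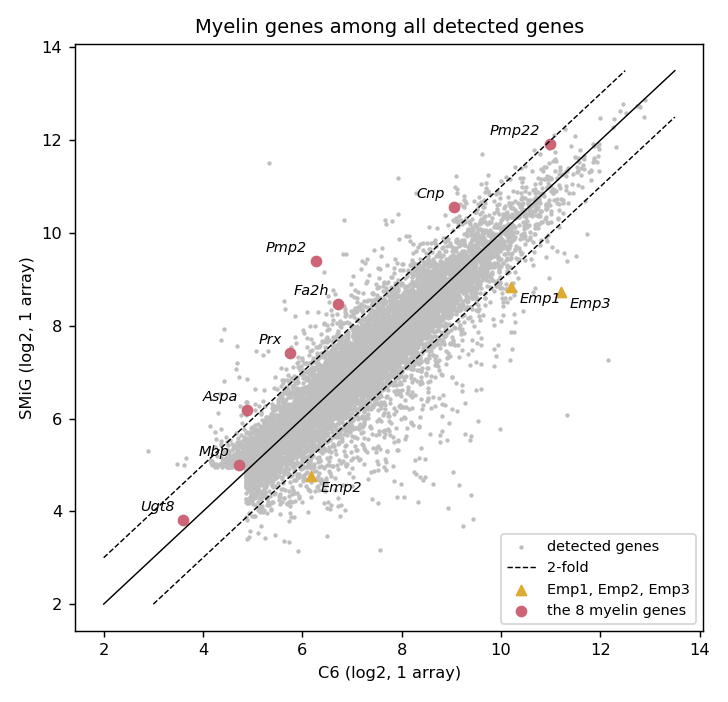
Each point is a detected gene, with its deposited log2 value on the C6 array (x axis) and on the SMiG array (y axis). The solid line marks equal values and the dashed lines 2-fold. Of the 8 myelin genes (red circles, with Ugt8 drawn although it was not detected), 5 lie above the upper dashed line and Pmp22 just under it, while Emp1, Emp2 and Emp3 (yellow triangles) lie below the lower one.

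In the central myelin pair, Cnp and Mbp gave different readings. Cnp encodes a phosphodiesterase of non-compact myelin that keeps cytoplasmic channels through the sheath open, and it is an early marker of oligodendrocytes that Schwann cells also make. Its value was 9.05 in C6 and 10.57 in SMiG, a log2 difference of 1.52 or 2.87-fold, at rank 92. Cnp was thus well above the floor on both arrays. The genes nearest to Cnp in the pair of levels were Kirrel1 at a distance of 0.02, Gpd1 at 0.05 and Tmem176b at 0.14. Cnp lies at chr10:86011504-86018063.

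Mbp encodes myelin basic protein, which holds the cytoplasmic faces of the compact sheath together. Its averaged value was 4.72 in C6 and 4.996 in SMiG, which is −0.14 and 0.04 from the floors, but this is the mean of 2 probe sets that disagreed in level, and no fold is drawn from it. The brighter one was at 5.78 in C6 and 5.77 in SMiG, a log2 difference of −0.01, and the dimmer one was under the floor on both arrays at 3.66 and 4.22. Against the 99th-percentile floors, 5.91 for C6 and 5.99 for SMiG, the brighter one was also under background on both arrays. The locus at chr18:78130652-78241174 has 2 annotated start sites in RefSeq, and which transcripts each probe set reads was not resolved here. No 2-fold difference in Mbp was seen by either probe set.

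The enzymes of myelin galactolipids were split between a hydroxylase that was higher and a galactosyltransferase at background. Fa2h was at 6.72 in C6 and 8.46 in SMiG, a log2 difference of 1.74 or 3.35-fold, at rank 63, and the gene lies at chr19:56222240-56273480. Ugt8, which carries out the step that makes galactosylceramide, was at 3.60 in C6 and 3.81 in SMiG, both under the floor by more than 1 log2 unit, so no fold is given for it. The gene lies at chr2:216938884-217007167. Gal3st1, the sulphotransferase of the next step, was not analysed here, nor were Sptlc1 and Sptlc2 of the first.

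Aspa, at chr10:58390204-58443790, was at 4.88 in C6 and 6.18 in SMiG, a log2 difference of 1.30 or 2.46-fold, at rank 155. The C6 value exceeded its floor by only 0.02, and the fold depends on where the floor is set. With the 99th-percentile floor Aspa was detected in SMiG alone and was at least 1.20-fold higher, short of 2-fold. Among other genes of acetylaspartate and acetate use, Acly, which makes cytosolic acetyl-CoA from citrate, was 2.02-fold higher, at 9.51 in C6 and 10.53 in SMiG. Acss2, which makes acetyl-CoA from acetate, was at 7.89 and 8.59. Nat8l, the enzyme that makes N-acetylaspartate in neurons, was under the floor on both arrays. Acy3, an aminoacylase related to Aspa, was 1.63-fold lower, at 6.14 and 5.44, and Acy1 was at 8.65 and 8.52. The 6 detected genes of this list had a median difference of 0.45, with 2 at least 2-fold higher and none 2-fold lower, and the median over all 11 measured genes was −0.02.

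Other central myelin genes were mostly within 2-fold. The list held 30 genes, 25 with a probe set of their own and 16 detected, 4 of these through SMiG alone. Of the 16, 13 had a higher value in SMiG, 2 by at least 2-fold (Cnp and Gpr37). On measured values 2 were at least 2-fold lower (Ninj2 and Tspan2), and 1 (Ninj2) where values under the floor are given as bounds. The 16 had a median difference of 0.35 against −0.0040 over all detected genes. With a median that small, about as many of all detected genes were lower in SMiG as higher. Gpr37, encoding an orphan receptor of oligodendrocytes, was at 8.02 in C6 and 9.32 in SMiG, 2.47-fold higher. Ninj2, encoding an adhesion protein, was at 6.43 in C6 and just under the floor at 4.95 in SMiG, at least 2.78-fold lower. Tspan2, encoding a tetraspanin, was at 5.84 in C6 and likewise under the floor in SMiG at 4.40, at least 1.84-fold lower. Mog and Mag, encoding glycoproteins of the outer and inner sheath, were at 4.48 and 4.67 in C6 and at 4.96 and 5.17 in SMiG, with bounds of 1.07-fold and 1.24-fold. Mobp was at 4.56 and 4.53, and Opalin at 4.41 on both arrays, all under the floor. Without Cnp and Mbp, 14 detected genes were left, 11 with a higher value in SMiG, with Gpr37 the 1 gene at least 2-fold higher. The genes detected through SMiG alone (Mog, Mag, Mal and, by its mean, Mbp) had to have a positive difference. The 3 detected through C6 alone (Gjc3, Ninj2 and Tspan2) were the only detected genes of the list with a lower value in SMiG.

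Peripheral myelin genes other than Pmp2, Prx and Pmp22 did not share their direction as a group. Of 25 listed genes 24 had a probe set and 19 were detected. At least 2-fold, 3 of these were higher and 2 lower. The median was −0.28, and it was 0.14 with the 99th-percentile floor and 0.014 with no floor, so the sign of this median follows the floor. Over all detected genes the median was −0.0040, −0.041 with the 99th-percentile floor and 0.045 with no floor. The peripheral median was thus above that of all genes only with the 99th-percentile floor. Leaving out Pmp2, Prx and Pmp22, 6 of 16 detected genes had a higher value in SMiG, and the median was −0.33. Cadm4, encoding the Schwann cell adhesion protein that contacts the axon along the internode, was the other gene at least 2-fold higher, at 9.07 in C6 and 11.00 in SMiG (3.80-fold). Fgd4, a gene mutated in a demyelinating neuropathy, was at 7.19 and 5.69 (2.82-fold lower). Pllp, encoding plasmolipin, was at 7.13 and 6.02 (2.15-fold lower). Ncmap, encoding a protein of non-compact peripheral myelin, was at 6.60 and 5.76, 1.79-fold lower. Gjb1, the connexin gene of Schwann cell incisures, and Gldn, encoding gliomedin of the node, were under the floor on both arrays. The difference between the central and peripheral medians has no test with 1 array a group.

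**Figure D3:**
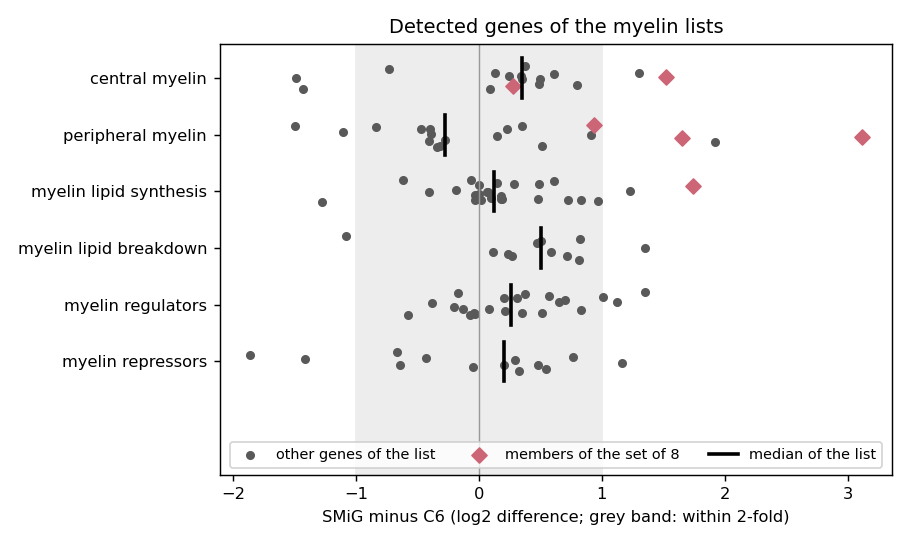
Log2 difference (SMiG minus C6) of the detected genes of 6 lists, with the vertical position within a list carrying no meaning. Diamonds are members of the set of 8 that were detected and belong to a list, grey points the other genes, and black bars the medians, which run from −0.28 for peripheral myelin to 0.51 for myelin lipid breakdown. Pmp2, Prx, Fa2h and Cnp lie to the right of the grey 2-fold band, apart from most genes of their lists.

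The wider lipid pathway around Fa2h and Ugt8 was mostly within 2-fold. Of 38 listed genes of ceramide, long-chain fatty acid and plasmalogen synthesis, 26 were detected, all on both arrays, with a median difference of 0.12. Of the 26, 18 had a higher value in SMiG. At least 2-fold higher were Fa2h and Kdsr, encoding the reductase of the second step of ceramide synthesis, at 7.72 in C6 and 8.95 in SMiG (2.35-fold). Degs1, whose enzyme introduces the double bond of ceramide, stood just short of 2-fold at 9.68 and 10.64. Cers2, which makes the very-long-chain ceramides of myelin, was at 9.83 and 9.77. Hacd1, an elongation dehydratase gene, was the 1 gene at least 2-fold lower, at 7.16 and 5.89 (2.42-fold). Genes of the lysosomal breakdown of these lipids had a median of 0.51 over 11 detected genes, of which 10 had a higher value in SMiG. Smpd1, encoding acid sphingomyelinase, was 2.56-fold higher, at 8.42 and 9.78. Galc, the galactosylceramidase that reverses the step of UGT8, was the exception, at 5.19 in C6 and under the floor at 4.11 in SMiG, with a bound of 1.18-fold.

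Regulators of myelin genes were detected on both arrays in most cases. Of 26 with a probe set, 22 were detected, 3 at least 2-fold higher and none 2-fold lower, with a median of 0.26. Pou3f2, a factor of promyelinating Schwann cells, was at 6.70 in C6 and 8.05 in SMiG (2.55-fold higher). Tcf7l2, a factor of maturing oligodendrocytes, was at 7.20 and 8.32 (2.18-fold higher). Sox10 was at 9.30 and 10.32, 2.02-fold higher, and stood at a log2 difference of 0.99, under the threshold, with quantile normalization. Egr2, the main driver of peripheral myelin genes, was at 9.45 and 9.96, and Myrf, that of central myelin genes, at 6.92 and 6.54. Egr2 and Myrf were thus above the floor on both arrays and within 2-fold. Among 13 detected repressors of myelin genes the median was 0.21. Hes1, a Notch target, was at 8.81 and 6.95 (3.63-fold lower), Sox5 at 6.38 and 4.97 (2.66-fold lower) and Sox2 at 8.65 and 9.81 (2.24-fold higher).

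Marker genes of other cell types were measured beside these values. The summed linear levels given cover every marker of a list with a probe set, also those under the floor, so background enters them. Of 12 Schwann cell markers with a probe set, 11 were above the floor in C6 and 10 in SMiG. The summed linear level of all 12 was 5951 in C6 and 7924 in SMiG. Directions were mixed, with 5 of the 11 detected Schwann cell markers higher in SMiG. S100b was 2.30-fold and Sox10 2.02-fold higher, Cdh19 at least 3.40-fold lower and Scn7a 2.87-fold lower. Of 7 oligodendrocyte precursor markers, 4 were above the floor on each array, with a summed level of 4679 in C6 and 3973 in SMiG, and Gpr17, Lhfpl3 and Neu4 were under the floor on both. Pdgfra was 2.24-fold lower, at 10.61 in C6 and 9.44 in SMiG, and Vcan was 1.13-fold lower. Cspg4 was 1.34-fold higher and Ptprz1 1.13-fold higher. Of 7 astrocyte markers 3 were above the floor on each array (1627 in C6 and 3241 in SMiG, with Aqp4, Slc1a2, Slc1a3 and Gjb6 under it). Of these 3, S100b, which is also in the Schwann cell list, and Aldoc (1.86-fold) were higher in SMiG, and Gfap was 1.48-fold lower, at 6.04 and 5.48. Of 8 neuron markers 3 in C6 and 2 in SMiG were above the floor (623 and 694, with Tubb3, Syt1, Stmn2, Nefl and Nefm under it on both). Map2 was at 8.80 in C6 and 9.01 in SMiG, and Snap25 at 5.65 and 6.17. Rbfox3 was at 5.12 in C6 and under the floor at 4.94 in SMiG. Of 7 microglia markers 1 in C6 and 2 in SMiG were above the floor (143 and 130, with Aif1, Cx3cr1, Csf1r, Itgam and Ptprc under it on both). Tmem119 was at 5.82 in C6 and 5.01 in SMiG, and P2ry12 was under the floor at 4.46 in C6 and at 5.32 in SMiG. Of 6 fibroblast markers 4 in C6 and 3 in SMiG were above the floor (814 and 318, with Dcn and Lum under it on both). Pdgfrb was 5.15-fold and Col1a1 2.23-fold lower, Col1a2 at least 1.13-fold lower, and Col3a1 1.11-fold higher. The part of these markers in the differences of the myelin genes was not tested. In RNA from a whole culture, a change in the share of cells that express a gene and a change in RNA per cell cannot be told apart.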

How the data were processed

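Total RNA of 1 culture of C6 cells and 1 culture of SMiG cells was hybridised to GeneChip whole-transcript arrays, per the labels' protocols. The deposited series table holds 1 log2 value for each of 36685 probe sets and each array. The log base was read from the range of the values (1.26 to 13.09). For background correction, normalization and probe summarisation by the authors, the method is not given in the sources consulted, and column medians were 4.84 (C6) and 4.86 (SMiG), so no further scaling was applied. Another summarisation could give other folds.

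The platform annotation supplied the names: 18511 probe sets had 1 symbol, 575 several and 17599 none. Only the first kind was used, and probe sets of a gene were averaged. Receptor genes were those whose symbols start with Olr, Or or Vom and a digit, since current rat symbols of olfactory receptors start with Or. A fold with 1 array at or below its floor sets the brighter value against the dimmer array's floor. Gene and promoter positions are from RefSeq, GRCr8, which no deposited coordinate depends on.

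The members and lists were chosen with earlier results of these data known. Named were all 8 genes, up to 5 detected genes of each list with the largest difference of at least 2-fold, a fixed set of myelin and family genes, the 3 genes nearest to Pmp2 and to Cnp, and markers at or below the floor. Also named, after their values were seen, were Acss2, Nat8l, Opalin, Mal, Gjc3, Dag1, Ncmap, Gldn, Rbp2, Lim2, Perp, Tmem47, Acy1, Acy3 and some of the detected markers. Calls were checked on simulated data, with changes placed only in genes brighter than Pmp2, Prx, Fa2h and Aspa were in C6. The simulated noise was set to the receptor-gene SD and the changes were larger than 2-fold, so their recovery follows from these settings. That check does not cover the spread between cultures, nor changes in dimmer genes or near the floor. Computation used pandas 2.3.3 and numpy 2.4.6 in Python 3.11.15, lowess from statsmodels 0.14.6, and plots from matplotlib 3.10.9. Alternatives changed the floor, the scaling (lowess span 0.3), the choice of probe set and the fold threshold.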

Additional observations from a re-analysis of the deposited data

How the results depend on the processing

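No paired analysis was possible because each group has 1 array. The choice of floor cannot change a measured difference. It acts through the bounds and through which genes count as detected and so enter a median. Under the scalings, the measured differences of the 8 genes moved by less than the receptor-gene SD of 0.32. Raising values to the floor could move only Mbp and Ugt8, and the choice of probe set only Mbp. From the main values of these genes, those shifts were also smaller than that SD. For the other genes these settings are no check. Pmp2 ranged from 3.12 to 3.15, Fa2h from 1.74 to 1.78, Prx from 1.65 to 1.70, Cnp from 1.51 to 1.54, Aspa from 1.26 to 1.32, Pmp22 from 0.92 to 0.96, Ugt8 from 0.10 to 0.21, and Mbp from −0.01 to 0.56 between its probe sets. As a bound against that stricter 99th-percentile floor, Aspa stood at 0.26. The number of members at least 2-fold higher was 5 on measured values and under each scaling, 3 at a 3-fold threshold and 6 at a 1.5-fold threshold, and the number at least 2-fold lower was 0 throughout. With bounds against the 99th-percentile floor, 4 were at least 2-fold higher, Aspa no longer among them. The median of the central myelin list, 0.35, was 0.49 with the 99th-percentile floor (8 genes left) and 0.25 with no floor (25 genes). The peripheral median, −0.28, was 0.14 with the 99th-percentile floor (17 genes) and 0.014 with no floor (24 genes), where the set of genes entering it is what differs. The lipid synthesis median stayed between 0.12 and 0.15. Over all detected genes the median was −0.041 with the 99th-percentile floor and 0.045 with no floor. Scaling moved the median of all detected genes by at most 0.026. Signal over background limits both Mbp probe sets, Ugt8, Aspa in C6, Mog and Mag.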
